A study of Mus musculus with 2 samples.

Results

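Laminins, type IV collagens, the proteins that link them and the integrins that bind them were followed through the cell classes of the mouse mammary gland. The set was a list of 35 genes chosen by name, each with at least 20 unique molecular identifiers (UMIs) over both deposited matrices. All 35 passed that limit, out of 32285 genes in the matrices. The members were 9 laminin chains, 6 type IV collagen chains, 2 nidogens, the proteoglycans perlecan (Hspg2) and agrin (Agrn), dystroglycan (Dag1), 9 integrin alpha chains and 6 integrin beta chains.

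A basement membrane is a thin sheet of matrix on which epithelium, endothelium, muscle and nerve rest. Laminins are trimers of an alpha, a beta and a gamma chain that polymerise at the cell surface, and type IV collagen trimers form a second network that nidogens and perlecan tie to the first. Cells hold on through dystroglycan and through integrins, each a pair of an alpha and a beta chain. In the mammary gland, the sheet lies under the basal (myoepithelial) cells, and contact with laminin is known to support milk gene expression in cultured luminal cells.

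The study held 1 library of Gpm6a-deleted mice (KO) and 1 of wild-type mice (WT), made from cells sorted as negative for DAPI (a dye that enters dead cells) of the 4th mammary gland of virgin C57BL/6 females aged 6 to 8 weeks. Gpm6a encodes a neuronal membrane glycoprotein. Each genotype had 3 littermates, and the labels do not state whether their cells were pooled or how the deletion was made. RNA was captured at the 3′ end, so levels are UMIs per 1000000 of a class (CPM), which are compared between classes or libraries for 1 gene and not between genes.

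With 1 library per genotype there was no replicate and no test. Intervals are exact 95% Poisson intervals, which cover counting error only, and a difference between KO and WT was counted where it was at least 2-fold. Gpm6a itself had 29 UMIs in the KO library and 284 in the WT library. It was among the leading genes of cluster 31, with 14 KO and 49 WT cells, and the part of these cell numbers in the totals was not tested. The deposited matrices held 11442 KO and 12291 WT barcodes with 139757797 and 160026788 UMIs, and 10422 and 10523 cells were analysed, with medians of 9500 and 11086 UMIs. The protocol text calls the sorted cells epithelial, but fibroblasts were the most numerous class, with 4573 KO and 3793 WT cells. Clusters without a name held 6.27% of KO and 18% of WT cells, and 1 of them, cluster 10, had 15 KO and 665 WT cells. Among analysed cells, 20 barcode sequences occurred in both libraries.

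Classes were named from fixed markers, and 10 of them had at least 100 cells in each library: basal, luminal progenitor, hormone-sensing luminal, fibroblast, vascular endothelial, smooth muscle, macrophage, dendritic, T cell and B cell. Each name stands for cells like that type. The markers of every class were detected in both libraries except Tff3, a hormone-sensing luminal marker, which was at 0. The smooth muscle class (cluster 11, 181 KO and 482 WT cells) also carried 5 of 7 pericyte markers. Cluster 7 carried 6 of 8 markers of each luminal type and was left without a name. The members took no part in the clustering, so no class was defined by them.

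The same class had the highest level of a gene in both libraries for 33 of the 35 members, against 67.1% of all 18876 genes with at least 20 UMIs in these classes. For 28 of the 35, the interval of that class also lay clear of the next class in both libraries, as it did for 28% of all genes. The members had from 383 to 205065 UMIs each, while the other genes went down to 20. Intervals narrow with more UMIs, and the part of depth in both contrasts was not tested. Fibroblasts led for 11 members (10.6% of all genes), basal cells for 10 (6.02%), smooth muscle cells for 5 (7.92%), vascular endothelial cells for 4 (7.09%) and luminal progenitors for 3 (5.76%). Among the 10 compared classes, no member had its highest level in an immune class, and hormone-sensing luminal cells led for 1 member in 1 library. When cells were classed one by one from marker scores, in place of clusters, 21 of the 33 kept their class in both libraries.

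**Figure D1:**
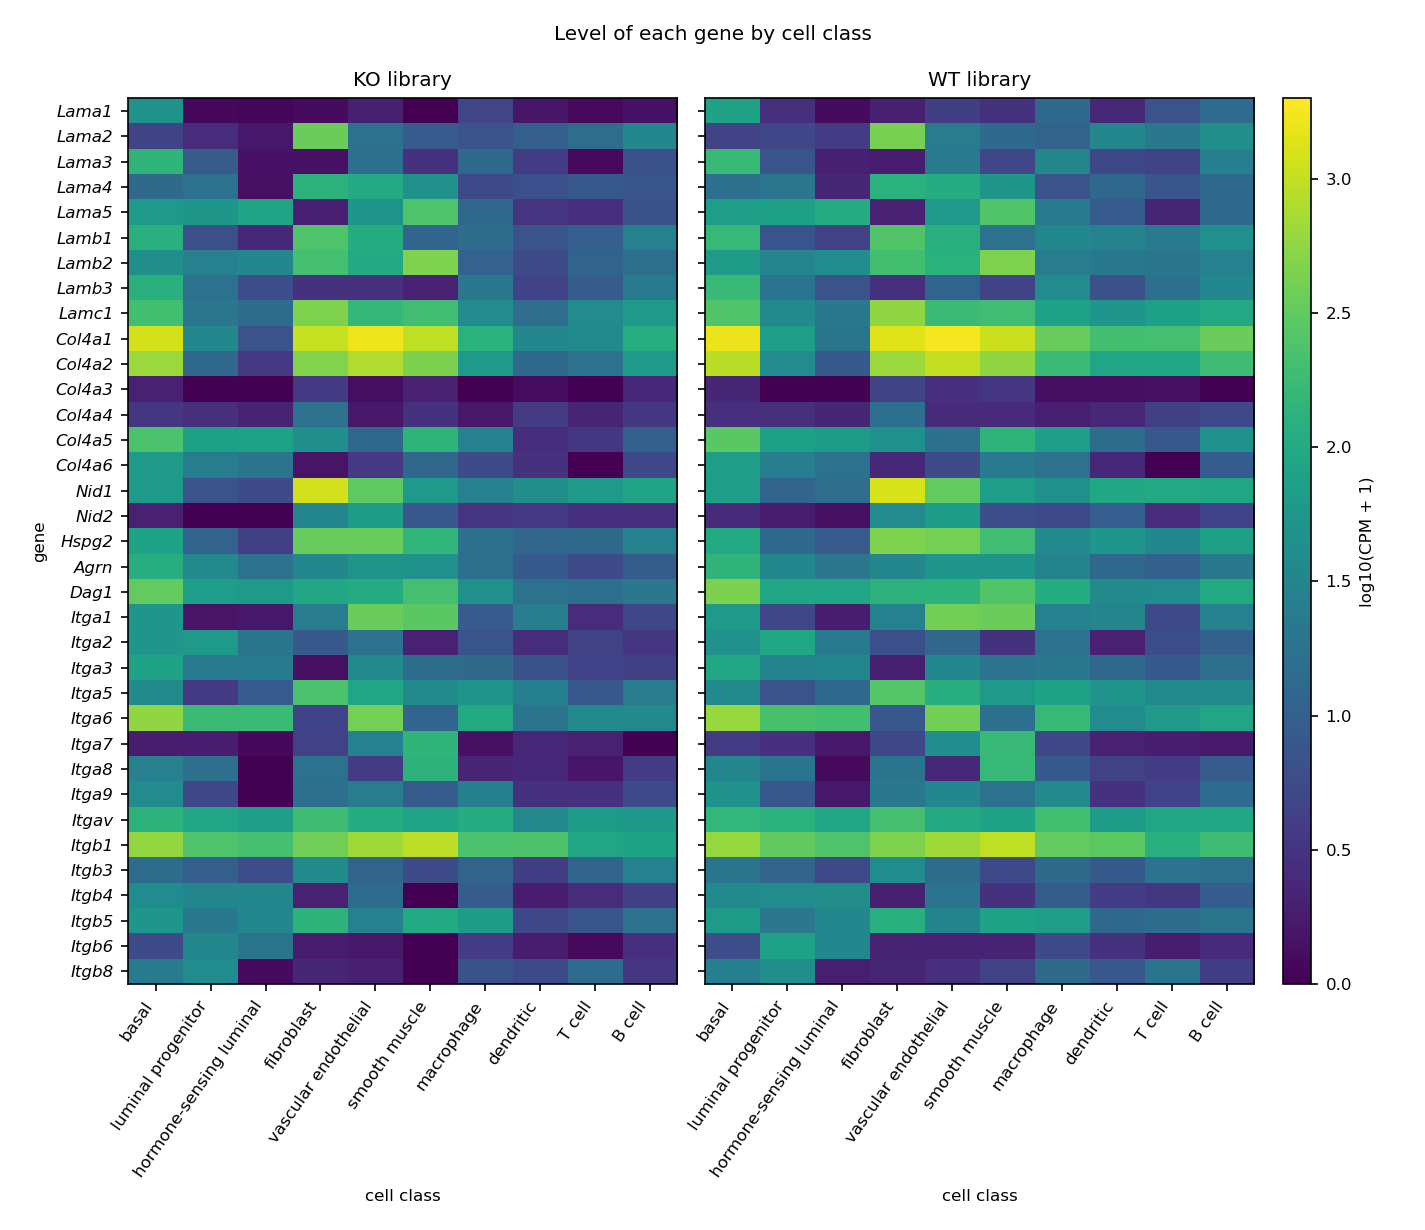
Level of the 35 genes in the 10 cell classes of each library, as log10(CPM + 1) in colour, with genes in rows by role and classes in columns. The patterns of the KO and WT panels are alike, and the immune columns of the WT panel are brighter, as for Col4a1 in T cells (35.7 CPM in KO and 205 in WT).

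Among the laminin alpha chains, each of the 5 had its own distribution. Lama1 encodes the alpha chain of the laminin made by the early embryo and by some adult epithelia. Its level in basal cells was 47.0 CPM in KO (43.7 to 50.4) and 82.3 in WT (78.6 to 86.2), and no other class exceeded 3.86 CPM in KO and 13.1 in WT. Of all Lama1 UMIs, 79.4% in KO and 67.6% in WT came from basal cells. Lama3, the alpha chain of the epithelial laminin that anchors hemidesmosomes, was at 143 CPM in KO and 168 in WT in basal cells. In luminal progenitors Lama3 was at 7.78 and 6.27 CPM and in hormone-sensing cells at 0.450 and 0.963, so that it marked the basal side of the epithelium in both libraries.

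Lama2 encodes the alpha chain known from muscle and nerve, whose loss causes a muscular dystrophy. Here it was a fibroblast transcript, with 362 CPM in KO (356 to 368) and 423 in WT (416 to 429), and 96.9% and 90.4% of its UMIs came from fibroblasts. In smooth muscle cells Lama2 reached only 7.87 and 12.6 CPM. Lama4, an alpha chain of vessel and fat basement membranes, was spread over fibroblasts (130 CPM in KO and 128 in WT) and vascular endothelial cells (102 and 109). The intervals of these 2 classes did not overlap, although the fold between them was only 1.28 in KO and 1.17 in WT.

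Lama5, the alpha chain most widespread in adult epithelium and vessels, was highest in smooth muscle cells, at 245 CPM in KO (216 to 277) and 251 in WT (235 to 268). It was also the luminal alpha chain, with 82.6 and 106 CPM in hormone-sensing cells, 55.4 and 73.0 in luminal progenitors and 60.0 and 66.8 in basal cells. Hormone-sensing cells, with 19.1% of all UMIs in KO and 15.4% in WT, held 37.9% and 34.3% of the Lama5 UMIs. Smooth muscle cells, with 0.793% and 2.34% of all UMIs, held 4.67% and 12.3%. Fibroblasts, the main source of Lama2 and Lama4, had 0.876 and 1.02 CPM of Lama5.

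The beta and gamma chains followed a similar division. Lamb1, the widespread beta chain, was highest in fibroblasts (245 CPM in KO and 252 in WT), followed by basal cells (122 and 159.8). Lamb2, the beta chain of synaptic, kidney and vessel basement membranes, was highest in smooth muscle cells (455 and 459.9 CPM), followed by fibroblasts (206 and 200.2). Lamc1, the gamma chain shared by most laminins, was at 460.1 and 557 CPM in fibroblasts and at 197 and 256 in basal cells, and at 13.7 and 20.9 in hormone-sensing cells. Hormone-sensing cells thus combined a Lama5 level above that of basal cells with Lamb1 at 1.31 and 3.33 CPM. Their Lamb2 level was 32.7 CPM in KO and 40.2 in WT, against 43.4 and 63.3 in basal cells.

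Lamb3 pairs with Lama3 in the laminin of hemidesmosomes. Lamb3 was at 124 CPM in KO and 166 in WT in basal cells, and the next class was B cells in KO (21.8) and macrophages in WT (37.9). The KO B cells also held basal markers at a summed 729.9 CPM over 8 genes and the WT macrophages at 2309, and their part in these values was not tested. Across the 10 classes the correlation of Lama3 with Lamb3 was r = 0.71 in KO and 0.90 in WT. These correlations rest on 10 classes that share a library, and serve only as a description.

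The epithelium was not uniform within its classes, as the plot of epithelial clusters shows. The basal class joined the large cluster 1 with the smaller cluster 15, whose leading genes included Lbhd2, Serpinb11 and Col9a1, and Lama1 itself by level. Lama1 was at 103 CPM in KO (92.0 to 114) and 185 in WT (173 to 196) in cluster 15, against 32.6 and 49.4 in cluster 1. Cluster 25, with genes of cell division and Serpinb11 among its leading genes, had 105 and 176 CPM of Lama1 from 47 KO and 92 WT cells.

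Lamb3 had the opposite order, with 136 CPM in KO and 189.6 in WT in cluster 1 and 76.6 and 92.4 in cluster 15. Lama3 differed less between these clusters, at 149.6 and 175 CPM in cluster 1 and 116 and 148 in cluster 15. Col4a1 and Dag1 went with Lama1: Col4a1 was at 1946 and 2312 CPM in cluster 15 against 1022 and 1371 in cluster 1, and Dag1 at 481 and 672 against 276 and 366. Col4a5 went with Lamb3, at 247 and 329 CPM in cluster 1 against 156 and 163 in cluster 15. The differences between the clusters held in both libraries, and since the clusters were cut from the same cells they carry no test.

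**Figure D2:**
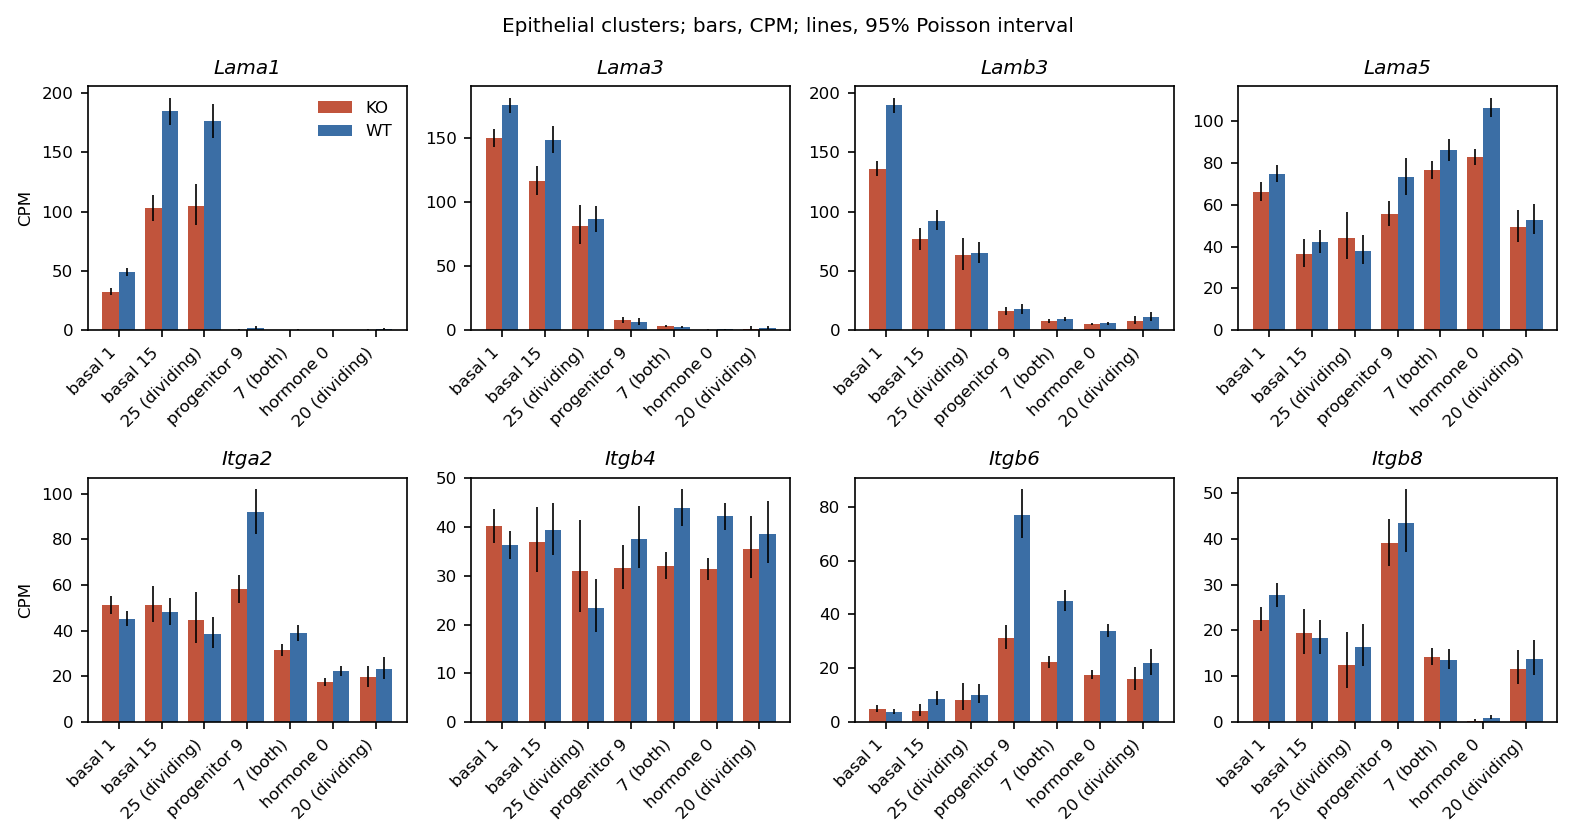
Level of 8 genes in 7 epithelial clusters, with bars for CPM (KO red, WT blue) and lines for the 95% Poisson interval; "dividing" marks clusters led by genes of cell division and "both" the cluster with markers of both luminal types. Lama1 reached 103 CPM in KO and 185 in WT in basal cluster 15, while Itgb6 was highest in progenitor cluster 9, at 31.4 and 77.1 CPM.

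Type IV collagen is built from trimers of Col4a1 with Col4a2 in nearly all basement membranes, and of Col4a3, Col4a4 and Col4a5, or of Col4a5 and Col4a6, in particular ones. The genes lie head to head in pairs and are read in opposite directions from a shared stretch of DNA. In the GENCODE M21 annotation of GRCm38, the starts of Col4a1 and Col4a2 on chromosome 8 overlap by 22 bases. Those of Col4a4 and Col4a3 on chromosome 1 have 71 bases between them, and those of Col4a6 and Col4a5 on chromosome X have 1308. These stretches were chosen for display after the correlations of the pairs across classes were seen, and no link between them was tested.

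They are RefSeq bases of GRCm38.p6, written 5′ to 3′. The first is the plus strand where both transcripts start (chr8:11312805-11312826), the next the plus strand between the starts on chromosome 1 (chr1:82586850-82586920). The last are the bases before each start on chromosome X, on the strand of its own gene (chrX:141474077-141474326 on the minus strand for Col4a6 and chrX:141475169-141475384 on the plus strand for Col4a5). Capitals mark GGGCGG, the core of the GC box, read on either strand.
Col4a1-Col4a2 start sites: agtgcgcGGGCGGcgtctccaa
Col4a4-Col4a3 interval: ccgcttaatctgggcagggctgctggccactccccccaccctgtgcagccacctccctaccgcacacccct
Col4a6 upstream: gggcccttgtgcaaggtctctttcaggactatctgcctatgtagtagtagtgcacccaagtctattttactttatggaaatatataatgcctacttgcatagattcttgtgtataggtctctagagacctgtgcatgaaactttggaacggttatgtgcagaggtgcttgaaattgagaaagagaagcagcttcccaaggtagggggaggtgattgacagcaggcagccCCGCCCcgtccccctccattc
Col4a5 upstream: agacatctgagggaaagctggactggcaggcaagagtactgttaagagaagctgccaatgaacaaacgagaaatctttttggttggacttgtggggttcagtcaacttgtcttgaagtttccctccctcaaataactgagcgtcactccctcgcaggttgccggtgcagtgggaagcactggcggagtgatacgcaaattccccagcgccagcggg

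Over the RefSeq promoter table, GGGCGG occurred on either strand within 250 bases before the start in 16 of the 30 promoters listed for 25 member genes, and in 32.7% of all 32851 promoters. CCAAT was in 9 of the 30 and in 33.8% of all, and TATAAA and TGANTCA were in 0 of the 30, against 12.4% and 6.75% of all. The letters searched do not overlap one another, and a match describes the window only. Agrn, Dag1 and Itga3 each entered the 16 more than once, and the windows of the Dag1 promoters overlap. The bases shown for Col4a5 end before its GENCODE start at 141475385 and hold no GGGCGG. Its RefSeq start is at 141475419, and the window before that start holds a GGGCGG past the bases shown, so Col4a5 is among the 16. The GGGCGG marked for Col4a1 and Col4a2 lies past both starts, inside both transcripts, and is not counted among the 16. The window before the Col4a1 start holds no GGGCGG, and that before the Col4a2 start holds another one.

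Col4a1 and Col4a2 moved as 1 unit, with r = 1.00 across the 10 classes in each library. Col4a1 was highest in vascular endothelial cells, at 1657 CPM in KO (1613 to 1703) and 1822 in WT (1779.6 to 1865), then in basal cells, at 1211 and 1601. Fibroblasts had 1008 and 1377 CPM and smooth muscle cells 961 and 1072, so that all 4 cell types facing a basement membrane or lying in the stroma carried it at a high level. The luminal cells did not, with 33.8 and 70.8 CPM in progenitors and 5.89 and 18.3 in hormone-sensing cells. Col4a2 had the same order of its leading classes, at 809 and 983 CPM in endothelial and 635 and 896 in basal cells. Fibroblasts held 56.6% of Col4a1 UMIs in KO and 48.0% in WT.

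Col4a5 and Col4a6 were both highest in basal cells, with r = 0.79 in KO and 0.91 in WT across the classes. Col4a5 was at 228 CPM in KO and 288 in WT in basal cells, with smooth muscle cells next at 138 and 139. Unlike Col4a1, it was also carried by luminal cells, at 73.0 and 71.9 CPM in progenitors and 75.4 and 61.1 in hormone-sensing cells. Col4a6 was at 59.2 and 69.0 CPM in basal cells and 24.2 and 25.1 in progenitors, and at 0.489 and 1.42 in fibroblasts. Fibroblasts did carry Col4a5, at 43.1 CPM in KO and 44.4 in WT.

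Col4a3 and Col4a4, chains known from the kidney filter, were the least abundant collagens, with 383 and 1755 UMIs over both libraries. Their highest class was fibroblasts, at 2.60 CPM in KO and 3.70 in WT for Col4a3 and 16 and 15.2 for Col4a4, with r = 0.80 in KO and 0.45 in WT over the classes. For Col4a3 the interval of the next class overlapped that of fibroblasts. Within the fibroblasts both were well above the class level in cluster 4, led by Hhip, Vit, Clec11a and Gdf10. There Col4a3 was at 12.8 CPM in KO (9.45 to 17.0) and 16.3 in WT (12.7 to 20.5), and Col4a4 at 52.3 (45.3 to 60.2) and 53.0 (46.5 to 60.3). In cluster 3, led by Stra6 and Mmp11, Col4a4 was at 1.84 and 1.12 CPM.

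The other fibroblast clusters each had their own matrix profile, as the plot of fibroblast clusters shows. Cluster 3 had the highest Lama2, at 605 CPM in KO and 704 in WT, and the highest Itga8, at 42.1 and 40.4. In cluster 2, whose leading genes included Pi16 and Dpp4, Nid1 was highest, at 1750.1 and 1729 CPM, while Col4a1 was lowest, at 271 and 378. Cluster 6, led by Fgf10, had Col4a1 at 1526 and 1950.4 CPM and the highest Itga5, at 489 and 491. Lamb2 was highest in cluster 4, at 386 and 407 CPM, and lowest in cluster 6, at 93.9 and 98.4. Col4a5 ranged from 4.46 and 6.53 CPM in cluster 3 to 77.6 and 66.1 in cluster 2, so that the cluster highest in Lama2 was the lowest in Col4a5.

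**Figure D3:**
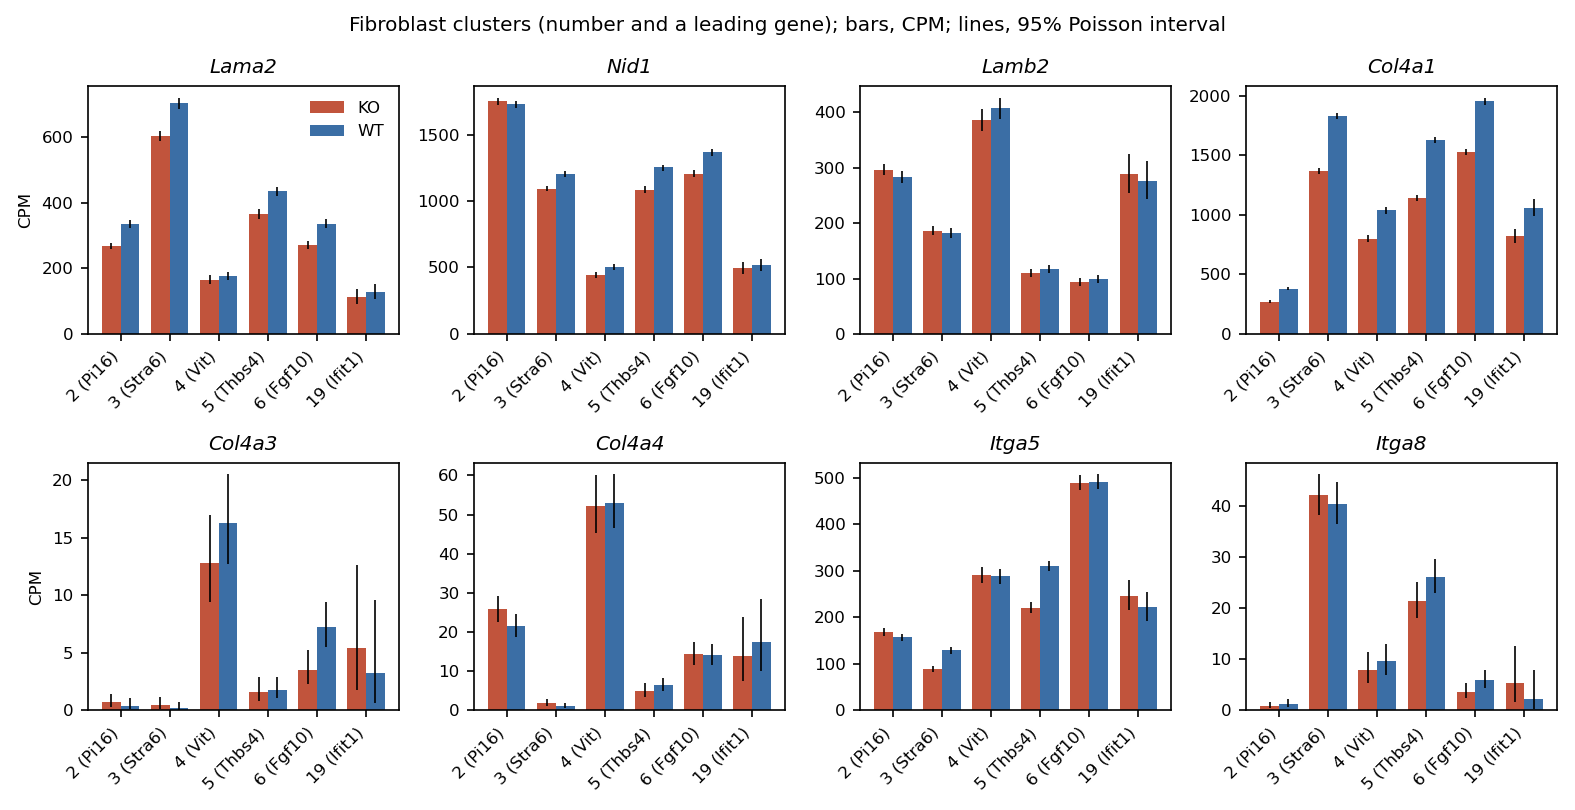
Level of 8 genes in the 6 fibroblast clusters, each given by number and a leading gene, with bars for CPM (KO red, WT blue) and lines for the 95% Poisson interval. Col4a4 reached 52.3 CPM in KO and 53.0 in WT in cluster 4 and stayed at 1.84 and 1.12 in cluster 3, where Lama2 was at 605 and 704.

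The linkers of the sheet were mostly stromal and vascular. Nid1, which joins laminin to collagen, was at 1203 CPM in KO and 1275 in WT in fibroblasts, 4.03 and 4.01 times its level in endothelial cells. Its relative Nid2 had the reverse order, with 63.9 and 65.0 CPM in endothelial cells and 32.1 and 38.4 in fibroblasts. Hspg2 was at 338 CPM in both endothelial cells and fibroblasts in KO, and at 409.8 and 452 in WT, so that its leading class differed between the libraries. Perlecan binds growth factors through its heparan sulphate chains.

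Agrin, the proteoglycan that clusters receptors at nerve endings, was instead highest in basal cells, at 114 CPM in KO and 145 in WT. Dystroglycan, which binds laminin, perlecan and agrin from the cell surface, was also highest there, at 318 CPM in KO (309 to 327) and 441 in WT (432 to 449), and next in smooth muscle cells, at 212 and 251. Dag1 was the gene whose levels across the classes were closest to those of Agrn among the members, with a mean r of 0.96 over the libraries.

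Among the integrins that bind laminin, Itga6 was highest in basal cells, at 563 CPM in KO (551 to 575) and 618 in WT (608 to 628), and next in endothelial cells, at 407 and 400.2. Luminal progenitors had 178 and 219.8 CPM and hormone-sensing cells 178 and 199. Fibroblasts had 3.58 and 6.84, below the 36.9 and 69.2 CPM in lymphocytes (T and B cells together). Itgb4, its partner in hemidesmosomes, was spread evenly over the epithelium: 39.5 and 37.0 CPM in basal cells, 31.6 and 37.6 in progenitors and 31.3 and 42.2 in hormone-sensing cells. Its leading class was thus basal in KO and hormone-sensing in WT. The correlation of Itga6 with Itgb4 over the classes was 0.90 in each library.

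Itga3, the alpha chain of a further laminin receptor, was at 78.6 CPM in KO and 91.1 in WT in basal cells and at 22.3 and 30.2 in progenitors. Itga7, the laminin receptor chain of muscle, was at 145 and 167 CPM in smooth muscle cells, 5.53 and 4.09 times the level in endothelial cells. It was nearly missing from the epithelium, with 0.807 and 2.86 CPM in basal cells, although these also make contractile proteins.

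Of the collagen receptor chains among the members, Itga1 was highest in vessels and Itga2 in epithelium. Itga1 was at 353 CPM in KO and 390.3 in WT in endothelial cells and at 286 and 362 in smooth muscle cells, with overlapping intervals in WT. Basal cells had 52.5 and 58.6 CPM of Itga1 and fibroblasts 23.4 and 27.6. Itga2 was highest in luminal progenitors, at 58.1 CPM in KO (52.2 to 64.5) and 92.1 in WT (82.5 to 102), and next in basal cells, at 51.2 and 45.9. The Itga2 intervals of progenitors and basal cells overlapped in KO. Outside the compared classes, mast cells had 144 and 77.1 CPM of Itga2 from 41 and 31 cells.

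Among the alpha chains that bind fibronectin and related ligands, fibroblasts led for Itga5 and Itgav, smooth muscle cells for Itga8 and basal cells for Itga9. Itga5, the fibronectin receptor chain, was at 228 CPM in KO and 263 in WT in fibroblasts and at 36.1 and 35.6 in basal cells. Itga8, whose known ligand is nephronectin, was at 135 and 162 CPM in smooth muscle cells and 26.0 and 31.5 in basal cells, while its ligand gene Npnt was highest in hormone-sensing cells, at 33.7 and 27.6 CPM. Itga9 was highest in basal cells (38.1 and 49.0 CPM), with macrophages next (25.8 and 34.9).

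Itgav, the alpha chain with the most beta partners among the fibronectin and vitronectin receptors, was carried by all 10 classes, from 34.3 CPM in KO and 61.8 in WT in dendritic cells to 185 and 209 in fibroblasts. Its WT level in macrophages, 199 CPM, had an interval that overlapped that of fibroblasts. Its beta partners differed more between classes. Itgb5, the vitronectin receptor chain, was highest in fibroblasts (135 and 119 CPM), followed by smooth muscle cells (104 and 80.4). Itgb3, known from platelets and bone, was also highest in fibroblasts (36.0 and 39.8 CPM), with an interval that overlapped that of B cells in KO. Itgb1, the shared partner of most alpha chains, was at 924 and 966 CPM in smooth muscle cells and no lower than 82.0 and 125 in any class.

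Itgb6 and Itgb8, beta chains that with Itgav release active TGF-beta, were highest in luminal progenitors. Itgb8 was at 39.1 CPM in KO and 43.6 in WT there and at 21.7 and 25.4 in basal cells. In hormone-sensing cells it was at 0.245 and 0.919 CPM, which separates the luminal classes in both libraries. Itgb6 did not separate them in this way: it was at 31.4 and 77.1 CPM in progenitors and 17.5 and 33.8 in hormone-sensing cells, and at 4.72 and 5.00 in basal cells.

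Between the libraries, the levels of most members were lower in KO within a class, by less than 2-fold. In basal cells, 30 of 35 members were below their WT level, with a median log2 ratio (1 CPM added to each level) of -0.24, against -0.02 over all genes. Fibroblasts had 26 of 35 below, with a median of -0.20 against -0.06. Endothelial cells had a median of -0.21 over 29 members with at least 20 UMIs in the class (all genes -0.07), and smooth muscle cells of -0.20 over 26 (all genes -0.06). The 6 lymphatic endothelial markers were at a summed 1720 CPM in KO and 197 in WT in the endothelial class, and the 7 fibroblast markers at 1248 and 3099, and their part in the ratios was not tested. Cells of the KO library had a median of 14430.5 UMIs in the basal class and 8417 in fibroblasts, against 12629 and 10833 in WT, and the part of depth in the ratios was tested only by thinning. Members that passed the limit of 20 UMIs are those described here, and the median of all genes is given for the same limit. The share of all genes below their WT level was not counted, so the 30 of 35 and 26 of 35 stand without it. Adding 1 CPM draws the ratio of a gene of low level toward 0, and its part in the all-gene medians was not tested. Relative to the ratio in all other cells, the median was 0.14 in basal cells, 0.44 in fibroblasts, 0.11 in endothelial cells and 0.17 in smooth muscle cells, so that its direction turned under that scaling. All other cells included the clusters without a name, among them cluster 10 with 15 KO and 665 WT cells. The part of those clusters in the turn was not tested.

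At least 2-fold differences were few in these classes. Itga7 in basal cells (-1.09, at 0.807 and 2.86 CPM) was the 1 of 35 there, where 0.729% of all genes were 2-fold lower. Fibroblasts and smooth muscle cells had 0, where 0.562% and 6.01% of all genes were 2-fold lower. In endothelial cells it was Lamb3 (1 of 29, with 3.97% of all genes 2-fold lower), at 1.92 CPM in KO (0.703 to 4.17) and 10.7 in WT (7.65 to 14.5). The summed level of 8 basal markers in endothelial cells was 429 CPM in KO and 811 in WT, and its part in the Lamb3 value was not tested. No member was 2-fold higher in KO in any of the 10 classes, where 0.853% of all gene values were.

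Lama1 had the lowest ratio in basal cells after Itga7, at -0.80. It was lower in KO in each basal cluster, at 32.6 against 49.4 CPM in cluster 1 and 103 against 185 in cluster 15, and the intervals did not overlap. Over the 19 settings tried, the ratio lay between -0.90 and 0.74 and was below 0 in 18. The exception was the ratio relative to all other cells, in which Lama1 was at 1.75 CPM in KO and 7 in WT. Those other cells included cluster 25, with 731 UMIs of Lama1 over both libraries from 47 KO and 92 WT cells. The part of cluster 25 in the exception was not tested. Of the 19 members measured in all 10 classes, 6 were below their WT level in each: Dag1, Lamb1, Col4a1, Col4a2, Nid1 and Hspg2. Of all genes measured in 10 classes, 12.4% were. Relative to all other cells, the basal ratio of Dag1 was 0.24 and that of Col4a1 was 0.20, so these directions turned too.

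In luminal cells the members were lower in KO by more. The median was -0.30 over 29 members in progenitors (all genes -0.02) and -0.43 over 30 in hormone-sensing cells (all genes -0.07). In all, 3 in progenitors and 5 in hormone-sensing cells were 2-fold lower, where 1.78% and 1.83% of all genes were. Relative to all other cells, the medians were -0.02 and -0.09. In hormone-sensing cells these were Col4a1 (5.89 and 18.3 CPM), Nid1 (4.66 and 14.1), Col4a2 (2.53 and 7.71), Lama2 (0.654 and 2.89) and Hspg2 (3.27 and 7.88), each at a small fraction of its level in fibroblasts. The summed level of 7 fibroblast markers in these cells was 80.0 CPM in KO and 347 in WT, with none at 0. In progenitors, Col4a2 (12.2 and 38.1) and Col4a1 (33.8 and 70.8) were 2-fold lower, beside fibroblast markers at 241 and 533 CPM and basal markers at 191 and 419.5. The part of these other cells' transcripts in the collagen values was not tested.

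Itgb6 was the remaining member 2-fold lower in progenitors, at 31.4 CPM in KO (27.1 to 36.2, from 190 UMIs) and 77.1 in WT (68.4 to 86.6, from 283 UMIs), a log2 ratio of -1.27. In fibroblasts it was at 0.799 and 1.04 CPM. It was also lower in KO in hormone-sensing cells (-0.91), in cluster 7 (22.2 CPM in KO and 44.9 in WT) and in the dividing luminal cluster 20 (15.8 and 22.0 CPM). Over the 4 luminal clusters together it was at 20.6 CPM in KO (19.3 to 21.9) and 39.6 in WT (37.7 to 41.6). In lymphocytes it was at 0.694 and 1.04 CPM.

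The progenitor ratio of Itgb6 was below 0 in 19 of 19 settings, and was less than 2-fold with each cell thinned to 2000 UMIs (-0.41) and relative to all other cells (-0.57). Itga2, also highest in progenitors, had a ratio of -0.66 there, and Itgb8 of -0.15. The progenitor marker Lalba was at 70.3 CPM in KO and 144 in WT and Elf5 at 173 and 108, so the markers of the class did not share 1 direction.

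**Figure D4:**
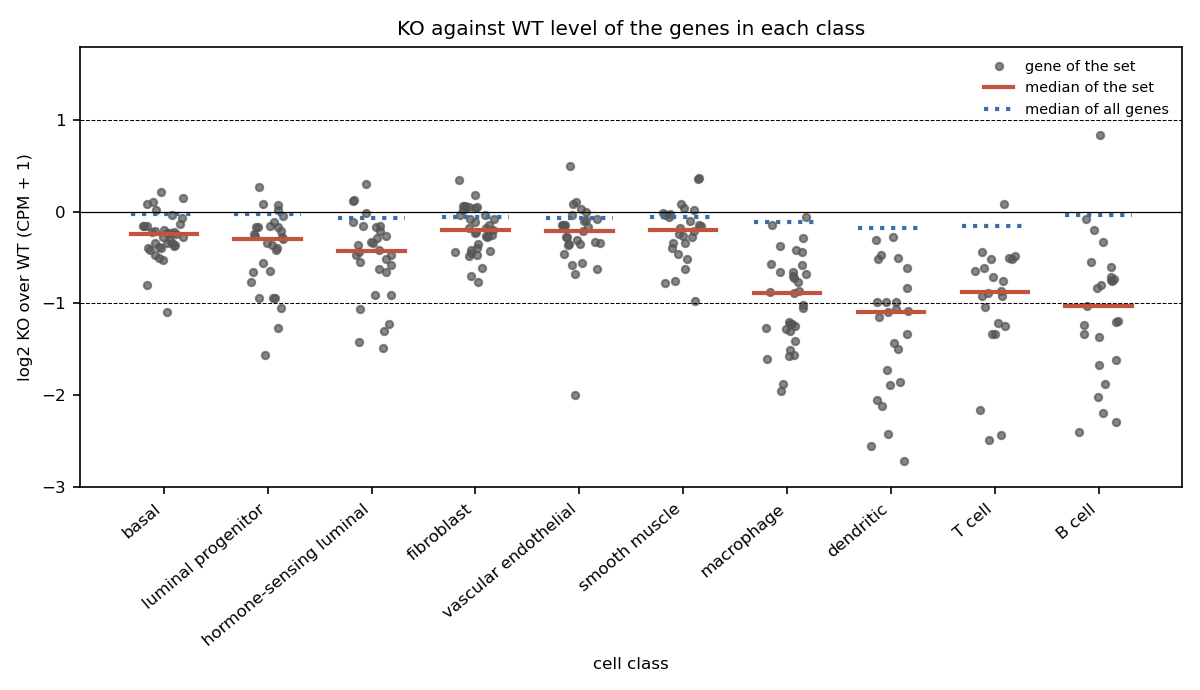
Log2 ratio of KO over WT level (CPM + 1) for each member with at least 20 UMIs in a class; points are genes, red bars their median, dotted blue bars the median of all genes, and dashed lines mark 2-fold. Points lie mostly below 0 in every class, and the medians run from -0.43 to -0.20 in the 6 epithelial, stromal and vascular classes and from -1.09 to -0.88 in the 4 immune classes.

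The immune classes had more member values past 2-fold than the others, as the plot of ratios by class shows. Over the 4 immune classes, 52 of 105 member values were 2-fold lower in KO, where 6.66% of all gene values were. By class these were 16 of 33 in macrophages (5.23% of all genes), 15 of 25 in dendritic cells (8.77%), 8 of 22 in T cells (6.26%) and 13 of 25 in B cells (6.68%). Over the other 6 classes it was 10 of 184, where 2.22% of all gene values were 2-fold lower. Col4a1 was at 32.9 CPM in KO and 199 in WT in dendritic cells, and at 35.7 and 205 in T cells, against 1008 and 1377 in fibroblasts.

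The summed level of the 7 fibroblast markers was 1156 CPM in KO and 6042 in WT in dendritic cells, 2309 and 4013 in T cells, 1086 and 1819 in macrophages and 4808 and 5384 in B cells. The basal markers were at 32.5 and 277 CPM in T cells. These markers, as the members, were higher in the immune classes of the WT library, and their part in the ratios was not tested.

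Other genes of the pathway, 53 on a separate list, differed little in basal cells and fibroblasts. Of 45 measured in basal cells and 46 in fibroblasts, 0 were past 2-fold, where 0.729% and 0.562% of all genes were 2-fold lower. In progenitors, 4 of 35 were 2-fold lower in KO (Col17a1, Col15a1, Sparc and Loxl2), and in hormone-sensing cells 5 of 40 (Col17a1, Col15a1, Sparc, Smoc2 and Serpinh1), against 1.78% and 1.83% of all genes. Sparc, a matrix protein that binds collagen, was at 53.5 CPM in KO and 135 in WT in progenitors, and at 9789.7 and 9101 in fibroblasts. In endothelial cells 1 was higher and 5 lower of 40 (3.97% of all genes lower), and in smooth muscle cells 1 higher and 2 lower of 37 (6.01%). The 2 lower there were Sdc1 (5.90 and 81.8 CPM), a cell surface proteoglycan, and Npnt (1.97 and 16.1), the ligand of the chain Itga8. In smooth muscle cells the 8 hormone-sensing markers were at a summed 29.5 CPM in KO and 129.8 in WT and the 7 fibroblast markers at 1146 and 2026, and their part was not tested. In the immune classes, 13 of 46 pathway genes were 2-fold lower in macrophages, 20 of 39 in dendritic cells, 10 of 35 in T cells and 8 of 36 in B cells, against the 5.23%, 8.77%, 6.26% and 6.68% of all genes, and 0 were 2-fold higher.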

How the data were processed

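UMI counts per gene and barcode were used as deposited by the authors, unnormalized, per the file headers and values. Per the submitters' processing notes, tools were Cell Ranger 5.0.1 along with Seurat 3.2.0, on mm10. The depth of each library is given in the report, and no barcode had fewer than 500 UMIs.

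Cells needed at least 500 genes, 1000 UMIs and at most 10% mitochondrial UMIs. Scrublet (in scanpy 1.11.5, expected rate 0.8% per 1000 barcodes) called 485 KO (4.45%) and 461 WT (4.2%) barcodes, which were removed. Counts were scaled to 10000 per cell and logged. The 2000 most variable genes, without the members, were reduced to 30 components, joined to 20 neighbours and clustered for both libraries together (leidenalg 0.10.2, resolution 1), which gave 36 clusters. No correction between libraries was made.

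A cluster took a name from markers of 22 types if at least 3 markers, and 50% of that type's, were 2-fold above other cells and present in 10% of its cells. The mean log2 fold had to be at least 1 and lead the next type by 0.5. Cells carrying as many markers of both luminal types were left unnamed, a rule added after seeing the clusters. The members and lists were chosen with earlier results of these data known.

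UMIs were summed per class and library. Each ratio is the log2 of (KO CPM + 1) divided by (WT CPM + 1), for genes with at least 20 UMIs in the class. Full values were given per class to members past 2-fold that reached 5 CPM in 1 of the libraries, at most 5 each way, otherwise to the highest or lowest ratio. Other genes, clusters and values were chosen after they were seen. Poisson intervals (95%) cover counting error only. The ratio step was tested on simulated class totals with Poisson error only. These held no difference between libraries in cell make-up or in transcripts from other cells, so the test cannot speak to such differences. Alternatives covered clustering, filters, doublets, thinning to 2000 UMIs, pseudocounts of 0.1 and 5 CPM, TMM factors (edgeR 4.0.16) and single abundant cells. Gene positions are from GENCODE M21, which holds 99.8% of the gene identifiers.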

Additional observations from a re-analysis of the deposited data

Results flagged for a closer look

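Col4a5 had a log2 ratio of KO over WT of 0.30 in hormone-sensing cells and of -0.34 in basal cells, a gap of 0.64 between ratios of opposite direction, and the difference was not tested. Itga2 had a ratio of 0.35 in fibroblasts and of -0.66 in luminal progenitors, a gap of 1.01, and this difference was not tested either. The fibroblast value of Itga2 lay between -0.01 and 0.49 over the settings tried.

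Some clusters without a name, which entered no comparison, held members above the level of the leading class in either library. Over both libraries, Itga5 was at 375 CPM (361 to 389) and Itgav at 227 CPM (216 to 238) in cluster 10, which was led by Rxfp2 and Rspo3 and consisted of 15 KO and 665 WT cells. Itgav was at 258 CPM (229 to 289) in cluster 22, with 2 KO and 198 WT cells and a median of 2096 UMIs. In cluster 25, which was led by Serpinb11 and genes of cell division, Lama1 was at 154 CPM (143 to 166) and Dag1 at 542 CPM (521 to 564).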

How the results depend on the processing

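No paired analysis was possible because each genotype had 1 library. Of 159 class-level values recomputed under the alternatives, 140 stayed within their limits and 19 moved. The class medians carry no 2-fold call, so a change of sign counted as moved: those of basal, fibroblast, endothelial and smooth muscle cells turned positive relative to all other cells, and that of smooth muscle cells also under 2 settings. Of 566 values of single genes, 450 stayed and 116 moved. The median log2 ratio of the members in basal cells was -0.12 with cells classed one by one, -0.35 as a mean over cells of CPM per cell and 0.14 relative to all other cells, against -0.24. In smooth muscle cells it was 0.04 with cells classed one by one, 0.02 thinned to 2000 UMIs, 0.17 relative to all other cells and -0.40 without the 5 cells with the most UMIs of each gene, against -0.20. Relative to all other cells it was also -0.02 in progenitors, -0.09 in hormone-sensing cells, 0.44 in fibroblasts and 0.11 in endothelial cells. The 10 member values past 2-fold in the 6 classes became 16 with cells classed one by one, 6 with doublets kept, 20 and 4 with pseudocounts of 0.1 and 5 CPM, 4 when thinned, 19 as a mean over cells and 6 relative to all other cells; the cause was not tested. Of the 33 members with 1 leading class in both libraries, 21 kept it with cells classed one by one, and 26 to 33 under the other alternatives. A limit of 5% mitochondrial UMIs left no named smooth muscle class and gave no value for it. Depth limits Col4a3 most, with 383 UMIs in all.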

Other observations

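Cluster 31, which joined Schwann and mesothelial markers and held 14 KO and 49 WT cells, entered no comparison. Itgb8 was at 322 CPM in KO (199 to 492) and 74.1 in WT (50.4 to 105) there, above its level in luminal progenitors. Itga6 was at 506 and 213 CPM and Itgb4 at 245 and 117 in the same cells. The KO values rest on 21 UMIs of Itgb8, 33 of Itga6 and 16 of Itgb4, and the shares of the cell types in the cluster were not measured.

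Cluster 17, led by Cst6 and Krt79, had 298 cells, all from the WT library. Its Itgb6 level was 48.9 CPM (43.8 to 54.4), its Itga6 level 253 CPM and its Lama3 level 41.3 CPM.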
